A study of Mus musculus with 5 samples.

Results

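Ccl17, Ccl22, Ccl24, Ccl19, Ccl21a, Ccr4 and Ccr7 are 5 CC chemokines and 2 chemokine receptors, chosen by name and not by their values. They are 7 of the 21617 genes in the table of raw counts, and each was followed through every cell class, subcluster and library. The data were 5 droplet-based single-cell libraries from mice, 1 library to a group, in which each captured transcript is counted by a molecular identifier (UMI). Foreign body granulomas, the tissue that forms around an implanted material, were taken from silk at 4 weeks, silk at 2 weeks, sponge at 4 weeks and sponge at 2 weeks. The control library held macrophages elicited with thioglycollate, an irritant that draws in such cells, so it differed from the granulomas in source as well as in the implant. The labels name no allele or other agent, and no source used here gives the strain, sex, age or number of animals behind a library.

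The libraries held 1873 cells in silk at 4 weeks, 10231 in silk at 2 weeks, 7701 in sponge at 4 weeks, 12347 in sponge at 2 weeks and 9039 in control, 41191 in all. Their summed UMIs ran between 11207419 in silk at 4 weeks and 96066597 in sponge at 2 weeks. Median UMIs per cell lay between 3818 and 5206 in the granulomas and stood at 7109 in control. Classes and subclusters are the authors' deposited names: a myeloid class of monocytes, macrophages and dendritic cells (Mo-Mac, subclusters C1 to C10), a class of NK and T cells (NK/T), B cells, neutrophils, fibroblasts, myocytes and endothelial cells. All 6 macrophage markers were detected in Mo-Mac cells of every library, with a summed level between 2534 and 5180 CPM, and all 5 T cell markers in NK/T cells, with 1704 to 2358 CPM. The control held no endothelial cells and 1 fibroblast, so members of those classes have no control level. Of all cell barcodes, 153 occurred in more than 1 library, at most 27 in any pair, and the 306 cells that carry them held 0.810% of the members' UMIs.

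Chemokines are small secreted proteins that direct the movement of cells bearing their receptors. Ccl17 and Ccl22 are the ligands of Ccr4, a receptor of type 2 helper and regulatory T cells, and are known products of dendritic cells and of macrophages exposed to type 2 cytokines. Ccl24 (eotaxin-2) is a ligand of Ccr3, the receptor by which eosinophils are recruited. Ccl19 and Ccl21a are the ligands of Ccr7, which guides mature dendritic cells and naive lymphocytes into lymphatic vessels and lymph nodes.

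With 1 library to a group, no test across animals was possible and no p-value is given. A level is counts per 1000000 UMIs of the cells named (CPM), with an exact Poisson 95% interval in square brackets. A ratio is a log2 ratio of 2 such levels with 0.5 counts added to each sum. Its 95% interval, in round brackets, is a conditional binomial one. A ratio of at least 2-fold (a log2 ratio of 1 or more in size) was called large where the 2 libraries together held at least 20 UMIs of the gene and each held at least 50 cells of the class. All intervals cover counting error only, and not the spread between animals. Those of levels and ratios treat each UMI as independent, so they also leave out the spread between cells and are too narrow where few cells hold the UMIs.

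The members came from different cells, as the map of levels shows. Over all libraries, Ccl24 had 35899 UMIs, Ccl21a 24893, Ccl22 9564, Ccr7 8578, Ccl17 4295, Ccl19 1688 and Ccr4 124. Subcluster C9, 2.23% of all cells, gave 91.6% of the UMIs of Ccl22, 75.4% of those of Ccr7 and 62.2% of those of Ccl17. The macrophage subclusters C7 and C6 gave 57.7% and 24.8% of the Ccl24 UMIs. Endothelial cells gave 98.8% of the Ccl21a UMIs, fibroblast subcluster F1 75.5% of the Ccl19 UMIs and NK/T cells 93.5% of the Ccr4 UMIs. The authors formed the subclusters from these same cells, so these shares describe where the counts lie and test nothing.

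**Figure D1:**
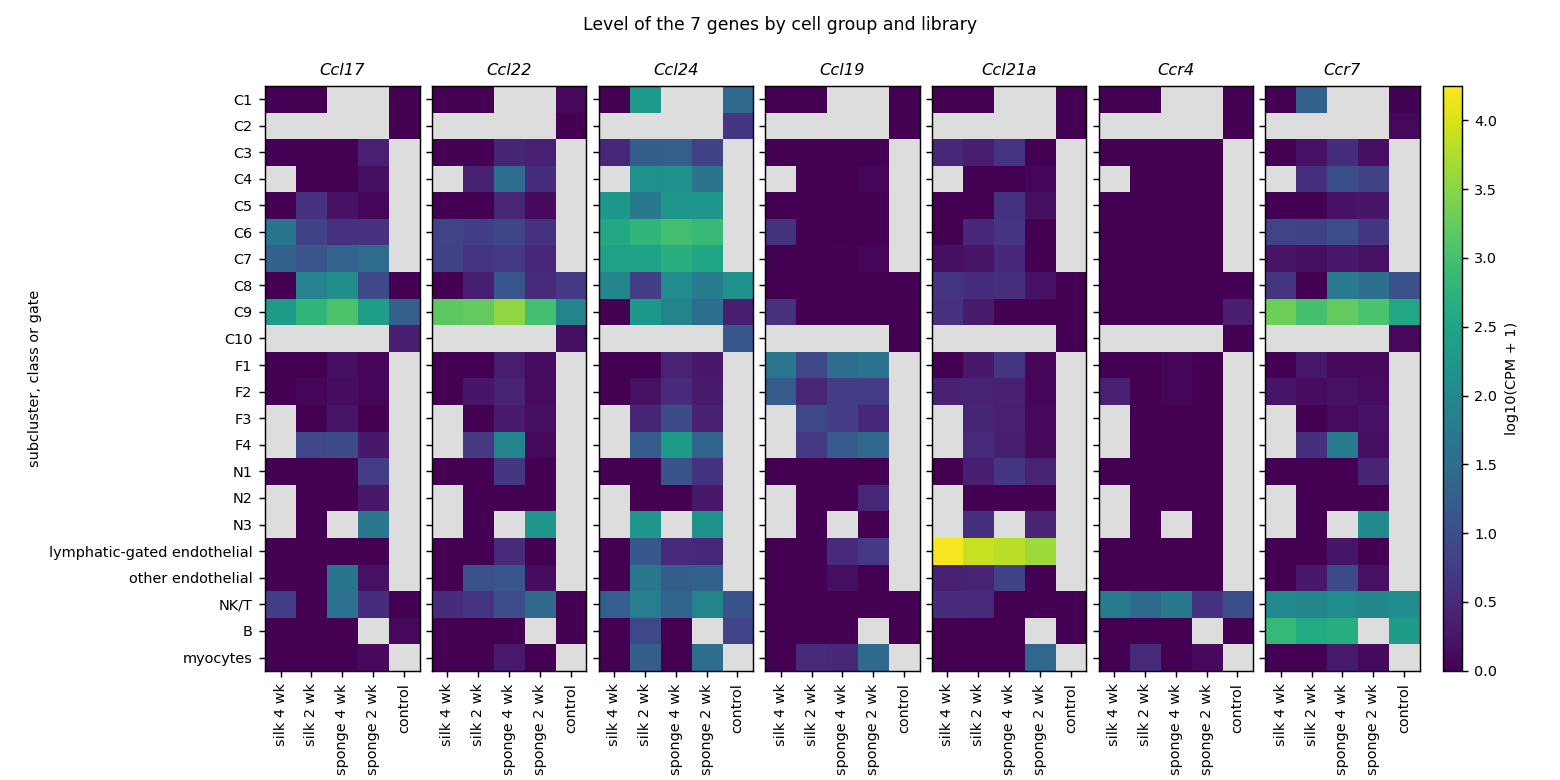
Heat map of the 7 genes (panels) in each class, subcluster or gated set (vertical axis) and library (horizontal axis), coloured by log10(CPM + 1); grey marks sets of under 20 cells. In the granulomas Ccl21a is highest in lymphatic-gated endothelial cells and Ccl17 and Ccl22 are highest in C9.

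Ccl17 and Ccl22, the Ccr4 ligands, were most abundant in dendritic cells of C9. C9 made up 5.515% of the Mo-Mac class in silk at 4 weeks, 2.42% in silk at 2 weeks, 4.74% in sponge at 4 weeks, 4.27% in sponge at 2 weeks and 1.63% in control. The subcluster was mixed. Its summed mast cell markers stood at 80.1 CPM in silk at 4 weeks, 74.2 in silk at 2 weeks, 406 in sponge at 4 weeks, 712 in sponge at 2 weeks and 9778 in control, and its dendritic markers between 1810 and 2752 CPM in all 5 libraries. C9 cells were therefore split with 10 mast cell and 10 dendritic markers that include no member: a cell with at least 3 dendritic UMIs, and more of these than of mast cell UMIs, was called dendritic-gated. This gate is a range on a count, not a cell type. It took 52 cells in silk at 4 weeks, 148 in silk at 2 weeks, 191 in sponge at 4 weeks, 239 in sponge at 2 weeks and 91 in control. In the gated cells Flt3, the receptor that marks the dendritic lineage, lay between 112 and 234 CPM and the mast cell protease gene Cpa3 was at 0 in every library. Both genes are among the markers of the gate, so the gate itself largely set these values. Of the other mast cell markers, Cma1 had 3 UMIs in control and Mcpt4 had 3 in sponge at 4 weeks. Macrophage markers were present: 5 of 6 were detected in silk at 4 weeks and 6 of 6 in the other libraries. Their summed level was 183 CPM in silk at 4 weeks, 359 in silk at 2 weeks, 244 in sponge at 4 weeks, 525 in sponge at 2 weeks and 307 in control. Among them Cd68 was found in 40.3% to 49.8% of gated cells, Csf1r in 17.3% to 35.1% in the granulomas and 2.20% in control, while Mertk had at most 5 UMIs. Their part in the levels of the members was not tested.

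In these dendritic-gated cells both ligands were far above control in every granuloma, and highest in sponge at 4 weeks. Ccl17 stood at 218 CPM [170 to 276] in silk at 4 weeks, 647 [594 to 703] in silk at 2 weeks, 1221 [1160 to 1285] in sponge at 4 weeks, 244 [221 to 268] in sponge at 2 weeks and, in control, 19.6 [10.7 to 32.9]. Ccl22 stood at 1607 CPM [1471 to 1753] in silk at 4 weeks, 1882 [1792 to 1976] in silk at 2 weeks, 3638 [3532 to 3746] in sponge at 4 weeks, 1039 [991 to 1088] in sponge at 2 weeks and, in control, 91.0 [70.2 to 116]. For either gene no granuloma interval overlaps the control interval. Of the granulomas, silk at 4 weeks and sponge at 2 weeks overlap for Ccl17, and no pair overlaps for Ccl22. The log2 ratios to control for Ccl17 were 3.43 (2.63 to 4.42) in silk at 4 weeks, 4.99 (4.29 to 5.92) in silk at 2 weeks, 5.91 (5.21 to 6.84) in sponge at 4 weeks and, in sponge at 2 weeks, 3.59 (2.87 to 4.52). For Ccl22 they were 4.13 in silk at 4 weeks, 4.36 in silk at 2 weeks, 5.31 in sponge at 4 weeks and 3.503 in sponge at 2 weeks. The 4 ratios share 1 control library, in which 14 Ccl17 UMIs and 65 Ccl22 UMIs were counted, and 60.0% of the Ccl22 ones lay in a single cell.

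A second reading by the share of positive cells keeps the same highest library. A Ccl22 UMI was found in 19 of the 52 gated cells in silk at 4 weeks (36.5%), 44 of 148 in silk at 2 weeks (29.7%), 90 of 191 in sponge at 4 weeks (47.1%), 66 of 239 in sponge at 2 weeks (27.6%) and 12 of 91 in control (13.2%). A Ccl17 UMI was found in 11 gated cells in silk at 4 weeks (21.2%), 28 in silk at 2 weeks (18.9%), 60 in sponge at 4 weeks (31.4%), 25 in sponge at 2 weeks (10.5%) and 6 in control (6.59%). At an equal depth of 1000 UMIs per cell the expected Ccl22 shares were 30.3% in silk at 4 weeks, 19.998% in silk at 2 weeks, 37.1% in sponge at 4 weeks, 17.2% in sponge at 2 weeks and 5.24% in control. All equal-depth shares in this report are over cells with at least 1000 UMIs, and shallower cells were left out of them. Fibroblasts, set beside them for background, had a Ccl22 UMI in 0 of 211 cells in silk at 4 weeks (an upper limit of 1.42%), 0.501% in silk at 2 weeks, 2.14% in sponge at 4 weeks and 0.611% in sponge at 2 weeks. Their median depths were 10133 to 15207 UMIs, against 5597 to 6520 in the gated granuloma cells.

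The materials differed in opposite directions at the 2 times. At 4 weeks the log2 ratio of silk to sponge was -2.48 (-2.86 to -2.14) for Ccl17 and -1.18 (-1.31 to -1.05) for Ccl22. At 2 weeks it was 1.41 (1.22 to 1.59) for Ccl17 and 0.86 (0.76 to 0.96) for Ccl22. Read by time, 4 weeks over 2 weeks gave -1.56 (-1.95 to -1.21) for Ccl17 and -0.23 (-0.37 to -0.08) for Ccl22 in silk. In sponge the same ratio gave 2.32 (2.17 to 2.48) for Ccl17 and 1.81 (1.73 to 1.89) for Ccl22. Each of these 8 ratios kept its direction under every alternative computed for it, leaving out the highest cell of each library among them. The Ccl22 shares of positive cells did not follow for silk by time. Ccl22 was found in 36.5% of gated cells at 4 weeks and 29.7% at 2 weeks. At equal depth its shares were 30.3% at 4 weeks and 19.998% at 2 weeks. For Ccl17 in silk the shares were 21.2% at 4 weeks and 18.9% at 2 weeks, and at equal depth 10.2% at 4 weeks and 14.1% at 2 weeks. The silk time direction of the summed levels was therefore shared by Ccl17 at equal depth, and by none of the other shares given. Whether these differences exceed the spread between animals was not tested.

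Mature dendritic cells, which have taken up antigen and express Ccr7, carried most of this signal. Gated cells led by the mature markers Fscn1, Cacnb3 and Il4i1 numbered 21 in silk at 4 weeks, 46 in silk at 2 weeks, 84 in sponge at 4 weeks, 75 in sponge at 2 weeks and 23 in control. They held 474 of the 509 gated Ccl22 UMIs in silk at 4 weeks, 1536 of 1618 in silk at 2 weeks, 4262 of 4456 in sponge at 4 weeks, 1743 of 1777 in sponge at 2 weeks and 63 of 65 in control. Within them Ccl22 stood at 3531 CPM [3220.1 to 3863] in silk at 4 weeks, 5719.7 [5437 to 6013] in silk at 2 weeks, 8667 [8408 to 8931] in sponge at 4 weeks, 3584 [3418 to 3756] in sponge at 2 weeks and, in control, 564.55 [434 to 722]. Ccl17 in the same cells stood at 298 CPM in silk at 4 weeks, 1523 in silk at 2 weeks, 2430.0 in sponge at 4 weeks, 701 in sponge at 2 weeks and 116.49 in control. The highest and lowest library were therefore the same in mature-led cells as over all gated cells. Mature-led cells made up 40.4% of the gated cells in silk at 4 weeks, 31.1% in silk at 2 weeks, 44.0% in sponge at 4 weeks, 31.4% in sponge at 2 weeks and 25.3% in control.

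Gated cells led by markers of the cross-presenting subset cDC1 were 72.5% of the control gate, against 20.9% to 31.0% of the granuloma gates. In them Ccl22 stood at 127 CPM in silk at 4 weeks, 248.47 in silk at 2 weeks, 66.4 in sponge at 4 weeks, 45.8 in sponge at 2 weeks and 3.41 in control. Ccl17 in the cDC1-led cells stood at 99.0 CPM in silk at 4 weeks, 422 in silk at 2 weeks, 343 in sponge at 4 weeks, 17.4 in sponge at 2 weeks and 1.70 in control. Cells led by Cd209a, a marker of the subset cDC2, held 56.3 CPM of Ccl17 in silk at 2 weeks, 229.9 in sponge at 4 weeks and 109 in sponge at 2 weeks. None of the 16 such cells in silk at 4 weeks and none of the 2 in control had a Ccl17 UMI. Ccl22 in the cDC2-led cells was at most 154 CPM in any library. Both ligands were thus lower in the cDC1-led and cDC2-led cells than in mature-led cells of the same library.

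**Figure D2:**
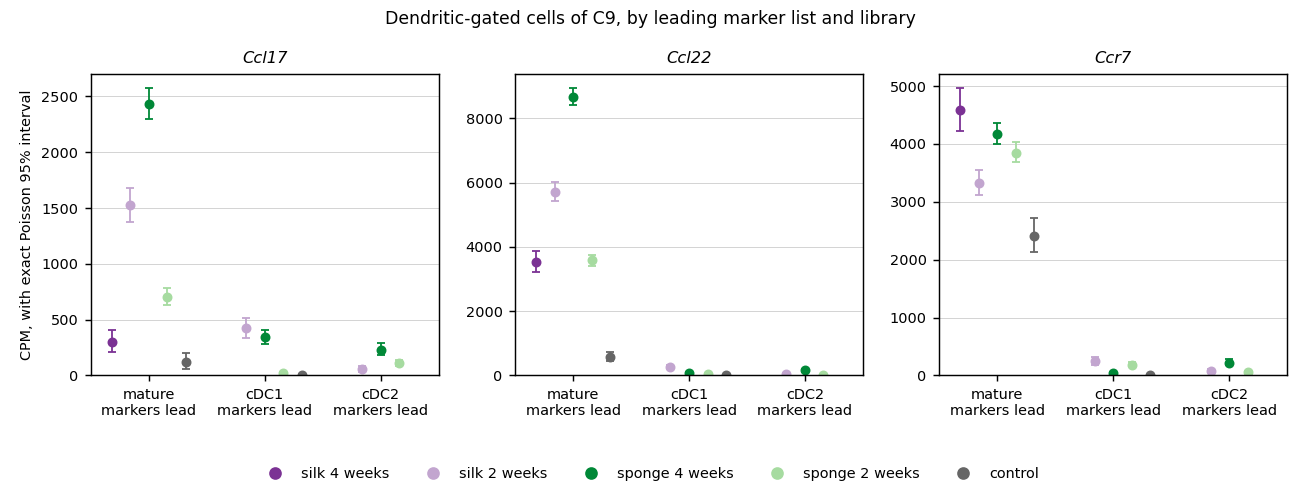
Levels of Ccl17, Ccl22 and Ccr7 (panels, CPM with exact Poisson 95% intervals) in dendritic-gated C9 cells led by mature, cDC1 or cDC2 markers, by library; sets of under 20 cells are left out. In mature-led cells Ccl22 is highest in sponge at 4 weeks (8667 CPM) and lowest in control (565 CPM), while Ccr7 lies between 2410.5 and 4581 CPM.

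The genes of the 2 ligands lie side by side on mouse chromosome 8 of GRCm38, both on the plus strand. Ccl22 (ENSMUSG00000031779.3) spans chr8:94745590-94751699 and Ccl17 (ENSMUSG00000031780.2) chr8:94810453-94812036, with 58753 bases between them. The bases upstream of each start are printed because the 2 genes had their highest level in the same cells and library. They come from the RefSeq promoter table of GRCm38.p6, plus strand, 5′ to 3′, for chr8:94745434-94745589 and chr8:94810203-94810452. Capitals mark matches to the letters TTCNNNGAA and TTCNNNNGAA, to which STAT factors bind; the wider spacing is the one known for Stat6.
Ccl22: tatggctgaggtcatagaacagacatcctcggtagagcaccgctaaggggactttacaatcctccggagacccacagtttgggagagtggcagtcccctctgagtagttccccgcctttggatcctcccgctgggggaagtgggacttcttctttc
Ccl17: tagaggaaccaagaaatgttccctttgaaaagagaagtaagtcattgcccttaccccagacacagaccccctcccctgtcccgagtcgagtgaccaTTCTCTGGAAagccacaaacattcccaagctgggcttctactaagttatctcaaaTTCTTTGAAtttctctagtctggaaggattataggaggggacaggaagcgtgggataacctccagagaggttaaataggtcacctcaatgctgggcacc
The Ccl17 window of 250 bases held 1 match to each spacing, TTCTCTGGAA at chr8:94810299-94810308 and TTCTTTGAA at chr8:94810354-94810362. Among 32851 promoters of the same window length, 5.85% held TTCNNNNGAA and 7.02% held TTCNNNGAA on either strand. The Ccl22 window of 156 bases held neither set of letters. Neither window held TGANTCA, to which AP-1 binds, or the NF-kB motif. At 156 bases, 3.87% of the promoters held TTCNNNNGAA, 4.59% TTCNNNGAA, 4.21% TGANTCA and 4.35% the NF-kB motif. At 250 bases, 6.75% held TGANTCA and 7.25% the NF-kB motif. A match is a description of letters and not a site shown to be bound.

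Outside C9 the Ccr4 ligands were sparse, and most of the Ccl17 lay in few cells. In Mo-Mac cells without C9, Ccl17 stood at 22.6 CPM in silk at 4 weeks, 11.8 in silk at 2 weeks, 18.8 in sponge at 4 weeks, 8.27 in sponge at 2 weeks and 0.0807 in control. Ccl22 stood at 4.73 CPM in silk at 4 weeks, 3.42 in silk at 2 weeks, 5.04 in sponge at 4 weeks, 1.99 in sponge at 2 weeks and 0.229 in control. It was less concentrated: 3 of the 27896 cells had at least 10 Ccl22 UMIs, and they held 52 of 382 UMIs (13.6%). Subcluster C7 gave most of this Ccl17: 26 of its 8161 cells had at least 10 Ccl17 UMIs and held 91.4% of the C7 Ccl17 UMIs. These 26 cells were 2 in silk at 4 weeks, 8 in silk at 2 weeks, 5 in sponge at 4 weeks and 11 in sponge at 2 weeks. They were picked by their Ccl17 count after it was seen, so what else they held is a description. Irf4, a transcription factor of cDC2, stood at 483 CPM in the 26 cells and 17.6 in the other C7 cells. Cd209a stood at 235 CPM in the 26 cells and 0.640 in the other C7 cells. Zbtb46, a factor of classical dendritic cells, stood at 44.4 CPM in the 26 cells and 1.03 in the other C7 cells. Macrophage genes ran the other way: the complement gene C1qa stood at 48.8 CPM in the 26 cells and 886 in the other C7 cells, and Mertk at 0 in the 26 cells and 54.8 CPM in the other C7 cells. Csf1r and Cd68 were each still found in 61.5% of the 26 cells, and in 80.2% and 78.55% of the other C7 cells. Of the 10 dendritic markers, Fscn1, Flt3, Cacnb3, Xcr1 and Clec9a were at 0 in the 26 cells. Naaa stood at 559 CPM in the 26 cells and 120 in the other C7 cells. Il4i1 stood at 13.3 and 3.67 CPM and Wdfy4 at 17.7 and 21.7, in the same order. At least 3 dendritic UMIs were found in 18 of the 26 cells and in 14.2% of all C7 cells. The median depth of the 26 cells was 8539.5 UMIs, and none was among the possible doublets. That rule used markers of other classes only, so it could not flag a macrophage joined to a dendritic cell. The part of other cell types in their Ccl17 was not tested.

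Ccl24, the eotaxin, was the most abundant member and belonged to macrophages. In Mo-Mac cells without C9 it stood at 240.5 CPM in silk at 4 weeks, 294 in silk at 2 weeks, 475 in sponge at 4 weeks, 198 in sponge at 2 weeks and 22.9 in control. The log2 ratios to control were 3.39 (3.29 to 3.49) in silk at 4 weeks, 3.68 (3.61 to 3.75) in silk at 2 weeks, 4.37 (4.30 to 4.45) in sponge at 4 weeks and, in sponge at 2 weeks, 3.11 (3.04 to 3.19). Every granuloma was thus above control, and sponge at 4 weeks was the highest. A Ccl24 UMI was found in 15.1% of these cells in silk at 4 weeks, 19.0% in silk at 2 weeks, 25.5% in sponge at 4 weeks, 16.1% in sponge at 2 weeks and 10.4% in control. At 1000 UMIs per cell the expected shares were 9.55% in silk at 4 weeks, 11.3% in silk at 2 weeks, 16.5% in sponge at 4 weeks, 8.44% in sponge at 2 weeks and 2.22% in control. Cells with under 1000 UMIs were left out of these expected shares, so they need not cover the same cells as the unthinned ones. Control B cells, which should lack the gene, had a Ccl24 UMI in 2.42% of cells at a median depth of 4513.5 UMIs, and NK/T cells in 1.12% to 3.03% at 2369 to 3109.5 UMIs. The unthinned control share of 10.4% came at a median depth of 7749 UMIs.

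Subcluster levels show which macrophages carried Ccl24. In C7 it stood at 265 CPM [251 to 281] in silk at 4 weeks, 273 [268 to 279] in silk at 2 weeks, 464 [453 to 476] in sponge at 4 weeks and, in sponge at 2 weeks, 326 [315 to 337]. In C6, a set of shallow cells with median depths of 948 to 1720.0 UMIs, it stood at 360.1 CPM [315 to 410.1] in silk at 4 weeks, 628 [605 to 651] in silk at 2 weeks, 981 [946 to 1017] in sponge at 4 weeks and, in sponge at 2 weeks, 762 [734 to 791]. Silk was below sponge in both subclusters at both times. The log2 ratios of silk to sponge were -0.81 in C7 and -1.44 in C6 at 4 weeks, and -0.25 in C7 and -0.28 in C6 at 2 weeks. Over the whole class without C9 the ratio was -0.98 (-1.06 to -0.90) at 4 weeks and 0.57 (0.53 to 0.61) at 2 weeks, so at 2 weeks the class and its 2 chief Ccl24 subclusters ran in opposite directions. The make-up of the class moved with this: C7 was 4461 of 7350 cells in silk at 2 weeks and 1122 of 7113 in sponge at 2 weeks, and C4 was 139 cells in silk at 2 weeks and 2542 in sponge at 2 weeks. C4 held 137 CPM of Ccl24 in silk at 2 weeks and 42.7 in sponge at 2 weeks. C5, which was 104 cells in silk at 2 weeks and 1357 in sponge at 2 weeks, ran the other way. It held 50.8 CPM in silk at 2 weeks, 171 in sponge at 2 weeks and 169 in sponge at 4 weeks. Its log2 ratio of silk to sponge at 2 weeks was -1.71 (-2.54 to -1.07). In sponge at 2 weeks 341 of the 1357 C5 cells had a Ccl24 UMI.

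By time, Ccl24 over the class gave a log2 ratio of 4 weeks to 2 weeks of -0.29 (-0.37 to -0.21) in silk and 1.26 (1.22 to 1.30) in sponge. Within C7 the same ratio was -0.04 (-0.13 to 0.04) in silk and 0.51 (0.45 to 0.57) in sponge. In C3 Ccl24 was lower, between 1.95 and 18.3 CPM in the granulomas. The control counts lay mostly in C1, a subcluster made almost wholly of control cells, with 27.1 CPM and a UMI in 742 of 6476 cells (11.5%). The counts were uneven within a subcluster: 10 of 496 C7 cells in silk at 4 weeks, 85 of 4461 in silk at 2 weeks, 62 of 2078 in sponge at 4 weeks and 28 of 1122 in sponge at 2 weeks held 50% of its Ccl24 UMIs. The receptor Ccr3 was near 0 in Mo-Mac cells, between 0.323 and 2.16 CPM.

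**Figure D3:**
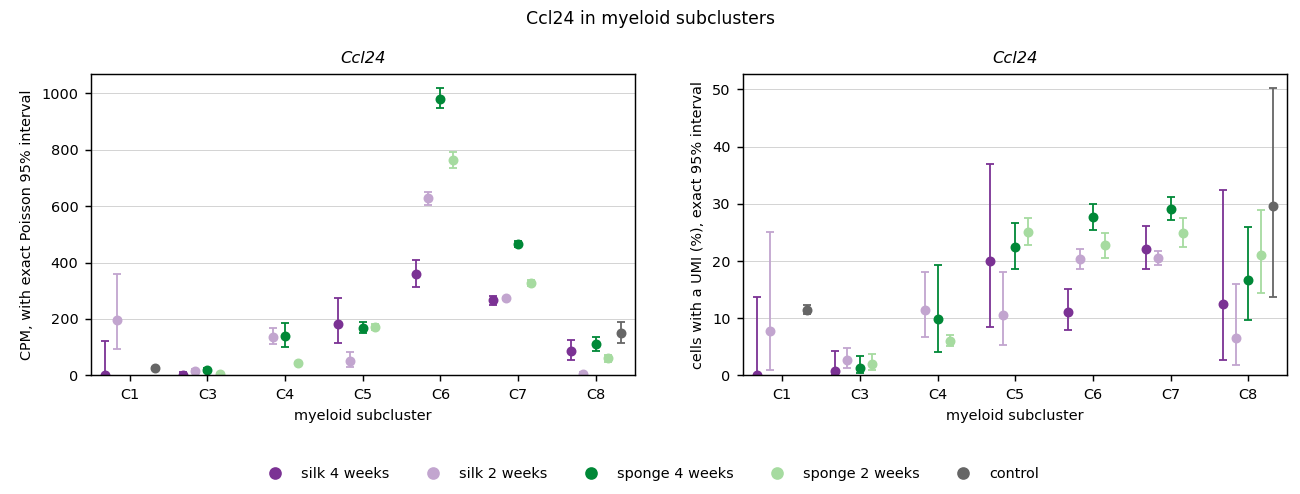
Ccl24 in Mo-Mac subclusters C1 and C3 to C8 by library: level in CPM with exact Poisson 95% intervals, and percent of cells with a Ccl24 UMI with exact binomial 95% intervals. Sponge at 4 weeks is highest in C6 (981 CPM) and C7 (464 CPM), and control has cells mainly in C1 (27.1 CPM).

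The 2 Ccr7 ligands came from stromal cells. Ccl19 (ENSMUSG00000071005.7, chr4:42754525-42756577) and Ccl21a (ENSMUSG00000094686.1, chr4:42772860-42773993) are neighbours on the minus strand of chromosome 4 of GRCm38, 16282 bases apart. Unlike the first pair, they were found in different cells.

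Ccl19, which fibroblastic cells of lymphoid tissue are known to make, was low in silk at 2 weeks and higher in the other granulomas. In fibroblasts it stood at 28.7 CPM [22.6 to 36.0] in silk at 4 weeks, 3.66 [2.68 to 4.88] in silk at 2 weeks, 18.955 [17.2 to 20.9] in sponge at 4 weeks and, in sponge at 2 weeks, 28.45 [26.7 to 30.3]. A UMI was found in 30 of 211 fibroblasts in silk at 4 weeks, 29 of 798 in silk at 2 weeks, 201 of 1495 in sponge at 4 weeks and 323 of 2127 in sponge at 2 weeks. NK/T cells had no Ccl19 UMI in any library, at median depths of 2369 to 3109.5 UMIs against 10133 to 15207 in the fibroblasts. The log2 ratio of silk to sponge was 0.61 (0.23 to 0.95) at 4 weeks and -2.94 (-3.42 to -2.53) at 2 weeks. The first of these was -0.07 without possible doublets and 0.04 as a mean over cells. The ratio of 4 weeks to 2 weeks was 2.97 (2.42 to 3.53) in silk and -0.58 (-0.75 to -0.42) in sponge.

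Subcluster F1 held most of it, with 45.2 CPM in silk at 4 weeks, 7.16 in silk at 2 weeks, 33.7 in sponge at 4 weeks and 41.8 in sponge at 2 weeks. Only 8 UMIs in 105 cells stand behind the F1 value of silk at 2 weeks, and 54 UMIs in 126 cells behind that of silk at 4 weeks. F1 was 126 of 211 fibroblasts in silk at 4 weeks, 105 of 798 in silk at 2 weeks, 829 of 1495 in sponge at 4 weeks and 1358 of 2127 in sponge at 2 weeks. F2 held 16.003 CPM in silk at 4 weeks, where 11 of its 22 UMIs lay in 1 cell, 1.90 in silk at 2 weeks, 4.86 in sponge at 4 weeks and 4.66 in sponge at 2 weeks. F4 held 4.07 CPM in silk at 2 weeks, 15.4 in sponge at 4 weeks and 26.3 in sponge at 2 weeks. The library low in the class was thus low in F1, F2 and F4. F3 ran the other way, with 7.26 CPM in silk at 2 weeks (17 UMIs), 4.81 in sponge at 4 weeks (14 UMIs) and 1.92 in sponge at 2 weeks (9 UMIs), and a log2 ratio of silk to sponge at 2 weeks of 1.89 (0.68 to 3.27). Control had no Ccl19 UMI in any cell; with 1 fibroblast there, this says nothing of fibroblasts.

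**Figure D4:**
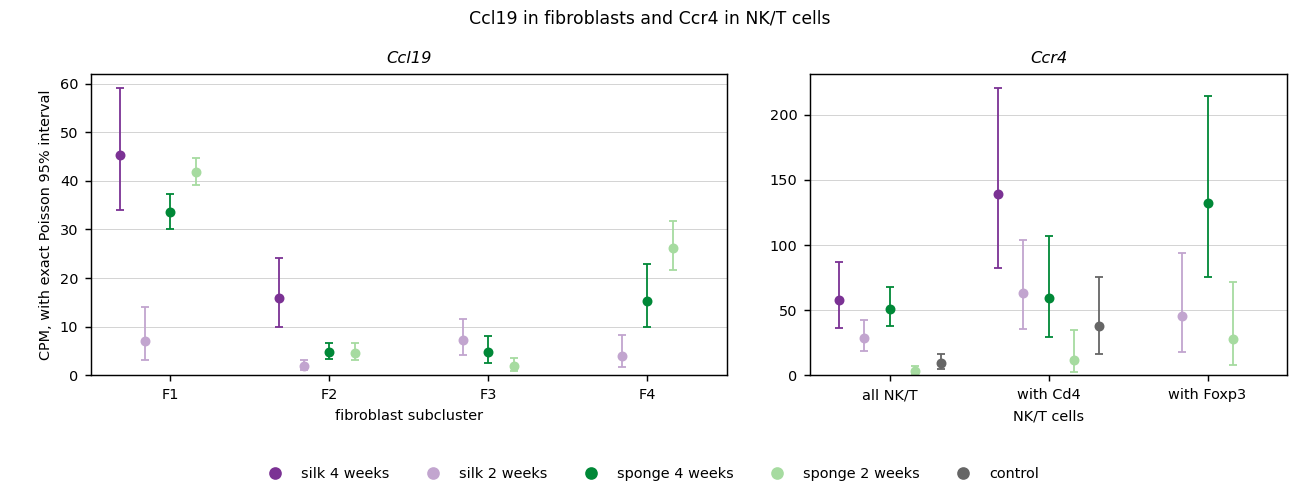
Left, Ccl19 level (CPM, exact Poisson 95% intervals) in fibroblast subclusters F1 to F4 of the granuloma libraries; right, Ccr4 level in all NK/T cells, in those with a Cd4 UMI and in those with a Foxp3 UMI. Ccl19 in F1 is lowest in silk at 2 weeks (7.16 CPM), and Ccr4 over all NK/T cells is lowest in sponge at 2 weeks (3.20 CPM).

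Ccl21a, the chemokine that lymphatic endothelium displays to Ccr7-bearing cells, was at its lowest in sponge at 2 weeks. In endothelial cells it stood at 5159 CPM [5026 to 5294] in silk at 4 weeks, 1980.4 [1938 to 2024] in silk at 2 weeks, 2386 [2336 to 2437] in sponge at 4 weeks and, in sponge at 2 weeks, 266 [255 to 278]. No pair of intervals overlaps, but in sponge at 2 weeks the 2106 UMIs lay in 9 cells, and 1 cell held 765 of them. The log2 ratio of silk to sponge was 1.11 (1.06 to 1.16) at 4 weeks and 2.90 (2.83 to 2.97) at 2 weeks. The ratio of 4 weeks to 2 weeks was 1.38 in silk and 3.17 in sponge.

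Endothelial cells were split by lymphatic markers, of which no member is one. Cells with at least 2 of Prox1, Lyve1, Mmrn1, Flt4 and Reln numbered 80 of 221 in silk at 4 weeks (36.2%), 143 of 579 in silk at 2 weeks (24.7%), 155 of 490 in sponge at 4 weeks (31.6%) and 20 of 810 in sponge at 2 weeks (2.47%). Within the lymphatic-gated cells Ccl21a stood at 15496 CPM in silk at 4 weeks, 7878 in silk at 2 weeks, 6370.5 in sponge at 4 weeks and 4222 in sponge at 2 weeks. In the other endothelial cells it stood at 1.36 CPM in silk at 4 weeks, 1.63 in silk at 2 weeks, 5.70 in sponge at 4 weeks and 0 in sponge at 2 weeks, where no UMI in 790 cells allows a level of up to 0.404 CPM. Nearly all Ccl21a therefore lay in lymphatic-gated cells, and the order of the class followed their share. A UMI was found in 74 of the lymphatic-gated cells in silk at 4 weeks (92.5%), 130 in silk at 2 weeks (90.9%), 122 in sponge at 4 weeks (78.7%) and 9 in sponge at 2 weeks (45.0%). Their median depth was 3108.5 UMIs in silk at 4 weeks, 4788 in silk at 2 weeks, 4786 in sponge at 4 weeks and 19940.0 in sponge at 2 weeks. The 20 gated cells of sponge at 2 weeks also differed in other markers. The 5 blood endothelial markers, all detected in each library, summed to 734 CPM in silk at 4 weeks, 539 in silk at 2 weeks, 1150.2 in sponge at 4 weeks and 2341 in sponge at 2 weeks. Flt1, a receptor of blood endothelium, was found in 2.50% of gated cells in silk at 4 weeks, 4.196% in silk at 2 weeks, 12.3% in sponge at 4 weeks and 55.0% in sponge at 2 weeks. Prox1, the lymphatic regulator, was found in 81.25% in silk at 4 weeks, 86.7% in silk at 2 weeks, 89.0% in sponge at 4 weeks and 45.0% in sponge at 2 weeks. The part of blood endothelial cells in the gate of sponge at 2 weeks was not tested.

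The level in the few lymphatic-gated cells of sponge at 2 weeks depends on the gate. At 3 markers that library kept 9 cells at 16250.0 CPM, against 16510.0 in silk at 4 weeks, 8905 in silk at 2 weeks and 8131 in sponge at 4 weeks. Its lowest place among the granulomas therefore held for the whole class and not for this narrower gate. One cell held 36.3% of its Ccl21a UMIs. Ccl21a also has near-identical copies: Gm21541 shares 864 of 870 transcript bases with it and Gm13304 832 of 837, so the level of this one gene is uncertain. The table gave Gm21541 between 3 and 14 endothelial UMIs per granuloma library. Ackr2, a scavenger of inflammatory CC chemokines known from lymphatic endothelium, stood at 22.6 CPM in endothelial cells in silk at 4 weeks, 18.8 in silk at 2 weeks, 17.0 in sponge at 4 weeks and 2.02 in sponge at 2 weeks. Ackr4, the scavenger of Ccl19 and Ccl21, had at most 8 endothelial UMIs in any library.

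**Figure D5:**
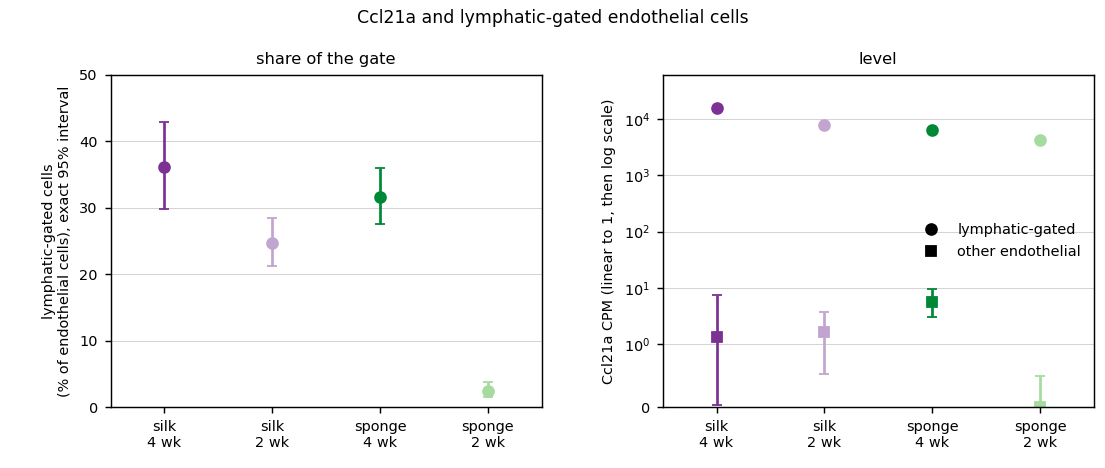
Lymphatic-gated share of endothelial cells (percent, exact binomial 95% intervals) and Ccl21a level (CPM, symmetric log axis, exact Poisson 95% intervals) in lymphatic-gated and other endothelial cells by granuloma library. The share is 2.47% in sponge at 2 weeks and between 24.7% and 36.2% in the other 3, and Ccl21a in other endothelial cells stays at or below 5.70 CPM.

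Ccr4 (ENSMUSG00000047898.7, chr9:114490316-114504916, minus strand), the receptor of Ccl17 and Ccl22, was the sparsest member. In NK/T cells it stood at 57.9 CPM [36.7 to 86.9] in silk at 4 weeks, 28.8 [18.6 to 42.5] in silk at 2 weeks, 51.3 [38.1 to 67.6] in sponge at 4 weeks, 3.20 [1.17 to 6.97] in sponge at 2 weeks and, in control, 9.49 [4.91 to 16.6]. These levels rest on 23 UMIs in silk at 4 weeks, 25 in silk at 2 weeks, 50 in sponge at 4 weeks, 6 in sponge at 2 weeks and 12 in control. Silk at 4 weeks, silk at 2 weeks and sponge at 4 weeks lay above control, while the interval of sponge at 2 weeks overlaps that of control. The log2 ratio to control was 2.58 (1.54 to 3.75) in silk at 4 weeks, 1.57 (0.55 to 2.73) in silk at 2 weeks and 2.39 (1.497 to 3.48) in sponge at 4 weeks. A UMI was found in 15 of 153 NK/T cells in silk at 4 weeks, 16 of 268 in silk at 2 weeks, 34 of 307 in sponge at 4 weeks, 6 of 462 in sponge at 2 weeks and 9 of 367 in control. B cells had none in any library, with up to 0.403% allowed among the 744 control B cells; their median depth of 4513.5 UMIs was above the 2369 to 3109.5 of NK/T cells.

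Ccr4 was higher at 4 weeks than at 2 weeks in both materials, by a log2 ratio of 1.01 (0.12 to 1.88) in silk and 3.90 (2.78 to 5.52) in sponge. Silk and sponge did not differ beyond counting error at 4 weeks, with a log2 ratio of 0.19 (-0.61 to 0.91), and at 2 weeks silk was above sponge by 3.08 (1.85 to 4.75). Regulatory T cells, marked by Foxp3, are a known site of Ccr4. Among NK/T cells with a Foxp3 UMI, Ccr4 stood at 20.7 CPM in silk at 4 weeks (18 cells), 45.7 in silk at 2 weeks (38 cells), 132 in sponge at 4 weeks (32 cells), 28.0 in sponge at 2 weeks (30 cells) and 0 in control (3 cells). Among NK/T cells without Foxp3 it stood at 63.0 CPM in silk at 4 weeks, 25.2 in silk at 2 weeks, 39.8 in sponge at 4 weeks, 1.15 in sponge at 2 weeks and 9.57 in control. Cells with a Cd4 UMI held 139 CPM in silk at 4 weeks, 63.2 in silk at 2 weeks, 59.8 in sponge at 4 weeks, 11.9 in sponge at 2 weeks and 38.2 in control. Cells with Ncr1 or Klrb1c, markers of NK cells, held no Ccr4 UMI in any library. The Ccr4 counts were thus spread over cells with and without Foxp3, and each such set rests on at most 34 UMIs.

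Ccr7 (ENSMUSG00000037944.8, chr11:99144196-99155077, minus strand), the homing receptor, was shared by dendritic cells, B cells and NK/T cells. In dendritic-gated C9 cells it stood at 2018 CPM in silk at 4 weeks, 1136 in silk at 2 weeks, 1768 in sponge at 4 weeks, 1182 in sponge at 2 weeks and 377 in control. Its log2 ratio to control was 2.42 in silk at 4 weeks, 1.59 in silk at 2 weeks, 2.23 in sponge at 4 weeks and 1.65 in sponge at 2 weeks; as a mean over cells the ratio in silk at 2 weeks was 0.74, under 2-fold. Between materials Ccr7 differed little, by 0.19 (0.06 to 0.32) at 4 weeks and -0.06 (-0.17 to 0.05) at 2 weeks on the log2 scale, silk over sponge. Mature-led cells held it in 95.2% of cells in silk at 4 weeks, 87.0% in silk at 2 weeks, 91.7% in sponge at 4 weeks, 97.3% in sponge at 2 weeks and 95.7% in control. Their Ccr7 levels lay between 3329 and 4581 CPM in the granulomas and at 2410.5 CPM in control, a narrower range than that of Ccl17 or Ccl22 in the same cells.

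Ccl22 and Ccr7 were often found in the same gated cell. Among gated cells with a Ccr7 UMI, Ccl22 was found in 65.2% in silk at 4 weeks, 62.3% in silk at 2 weeks, 81.1% in sponge at 4 weeks, 60.4% in sponge at 2 weeks and 45.5% in control. Among gated cells without a Ccr7 UMI the shares were 13.8% in silk at 4 weeks, 11.6% in silk at 2 weeks, 16.8% in sponge at 4 weeks, 5.59% in sponge at 2 weeks and 2.90% in control. The share was higher beside Ccr7 in all 5 libraries. Median depths with and without a Ccr7 UMI were 6417 and 5389 UMIs in silk at 4 weeks, 5944 and 4828 in silk at 2 weeks, and 6001 and 5649 in sponge at 4 weeks. They were 6531 and 6520.0 in sponge at 2 weeks, and 4594 and 9035 in control. In 4 libraries the cells with Ccr7 were thus the deeper ones, and the part of depth in these shares was not tested. Ccl17 was found in 25.8% to 54.5% of gated cells with a Ccl22 UMI and in 2.53% to 10.9% of those without, over the 5 libraries.

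Lymphocytes had Ccr7 in every library. In NK/T cells its summed level was close to that of control, and in B cells it was higher in each granuloma than in control. In NK/T cells it stood at 103 CPM in silk at 4 weeks, 86.4 in silk at 2 weeks, 114 in sponge at 4 weeks, 86.9 in sponge at 2 weeks and 119 in control, with log2 ratios to control between -0.45 and -0.06. By share of cells the gap was wider: 9.80% in silk at 4 weeks, 8.58% in silk at 2 weeks, 9.45% in sponge at 4 weeks, 8.66% in sponge at 2 weeks and 20.2% in control. Control NK/T cells with Cd8a or Cd8b1 had it in 33 of 52 cells. B cells held 711 CPM in silk at 4 weeks, 392 in silk at 2 weeks, 444 in sponge at 4 weeks, 321 in sponge at 2 weeks and 215 in control, from 14 to 49 cells in each granuloma and 744 in control. In control, B cells gave 66.7% of all Ccr7 UMIs.

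Counts of members at least 2-fold apart are set here beside the share of all genes that far apart. A member that is low in one library passes the minimum of 20 UMIs only through the other, so the counts support nothing by themselves. In Mo-Mac cells without C9, 4 of 4 measured members were at least 2-fold higher in silk at 4 weeks than in control, where 24.3% of all genes differed that much either way. The counts were 5 of 5 in silk at 2 weeks (background 26.4%), 5 of 5 in sponge at 4 weeks (26.8%) and 4 of 4 in sponge at 2 weeks (28.1%), all higher. Ccl19 and Ccr4 had too few UMIs there. Silk against sponge gave 2 of 5 at 4 weeks, both lower (6.12%), and 2 of 5 at 2 weeks, Ccl21a higher and Ccr7 lower (12.1%). The Ccl21a counts in Mo-Mac cells were nearly all single UMIs, at no more than 2.40 CPM. Time gave 0 of 5 in silk (8.84%) and 4 of 5 in sponge, all higher at 4 weeks (11.6%).

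In dendritic-gated C9 cells 3 of 3 were higher in silk at 4 weeks than in control (background 26.7%), 4 of 4 in silk at 2 weeks (26.9%), 4 of 4 in sponge at 4 weeks (25.8%) and 4 of 4 in sponge at 2 weeks (27.5%). Silk against sponge gave 3 of 4 at 4 weeks, all lower (13.6%), and 2 of 4 at 2 weeks, both higher (7.23%). Time gave 2 of 4 in silk, both lower at 4 weeks (13.4%), and 3 of 4 in sponge, all higher at 4 weeks (10.8%). Among the higher ones in silk at 2 weeks is Ccl24, of which 1 cell held 63 of the 67 UMIs.

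Other classes held few counts of most members, and their calls often rest on 1 to 3 cells. Endothelial cells gave 4 of 4 for silk against sponge at 4 weeks, Ccl21a higher and 3 lower (8.49%), and 3 of 3 at 2 weeks, all higher (10.2%). By time they gave 3 of 3 in silk, Ccl21a higher and 2 lower (10.5%), and 4 of 5 in sponge, all higher (12.1%). Fibroblasts gave 5 of 6 lower for silk against sponge at 4 weeks (11.6%), and at 2 weeks 3 higher and 1 lower of 6 (10.4%). By time fibroblasts gave 1 higher and 1 lower of 3 in silk (17.1%) and 5 of 6 higher in sponge (7.86%). NK/T cells gave 1 of 3 higher in silk at 4 weeks than in control (22.6%), 2 of 3 in silk at 2 weeks (19.4%), 3 of 4 in sponge at 4 weeks (20.9%) and 2 of 3 in sponge at 2 weeks (21.7%). Silk against sponge in NK/T cells gave 1 of 4 lower at 4 weeks (8.22%), and 1 higher and 1 lower of 4 at 2 weeks (10.0%). Time gave 1 higher and 1 lower of 3 in silk (9.34%), and 2 higher and 2 lower of 5 in sponge (13.8%). Neutrophils gave 0 of 1 for silk against sponge at 4 weeks (19.2%), 3 of 4 lower at 2 weeks (11.3%), 1 of 1 higher by time in silk (31.8%), and 1 higher and 3 lower of 4 by time in sponge (24.2%). Myocytes gave 3 of 3 lower at 4 weeks than at 2 weeks in sponge (10.5%).

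The other CC chemokines and receptors were read from a list of 29 genes, of which 27 are in the table. In Mo-Mac cells without C9, 7 of 17 measured were at least 2-fold higher and 1 lower in silk at 4 weeks than in control. The counts were 6 higher and 0 lower of 17 in silk at 2 weeks, 10 higher and 1 lower of 19 in sponge at 4 weeks, and 13 higher and 0 lower of 19 in sponge at 2 weeks. Of all genes tested in these comparisons, 12.98% to 15.5% were higher and 11.3% to 12.8% lower. Their median log2 ratio to control was 0.695 in silk at 4 weeks, 0.26 in silk at 2 weeks, 1.20 in sponge at 4 weeks and 2.32 in sponge at 2 weeks, while the median over all genes lay between -0.11 and -0.02. The median of the list was highest in sponge at 2 weeks. Ccl8, a chemokine that in the mouse acts on Ccr8, had its highest level there too: in Mo-Mac cells it stood at 56.1 CPM in silk at 4 weeks, 14.1 in silk at 2 weeks, 102 in sponge at 4 weeks, 1565 in sponge at 2 weeks and 2.06 in control. Ccl11 (eotaxin-1), which shares Ccr3 with Ccl24, stood at 148.5 CPM in fibroblasts in silk at 4 weeks, 69.4 in silk at 2 weeks, 133 in sponge at 4 weeks and 112 in sponge at 2 weeks.

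A list of 21 type 2 signalling genes, all in the table, was read the same way. In NK/T cells 5 of 13 measured were higher and 0 lower in silk at 4 weeks than in control, 5 of 14 and 0 in silk at 2 weeks, 7 of 14 and 0 in sponge at 4 weeks, and 4 of 15 and 0 in sponge at 2 weeks. Of all genes tested in these comparisons, 8.08% to 10.97% were higher and 9.61% to 13.6% lower. In Mo-Mac cells without C9, against control, silk at 4 weeks had 4 of 15 higher and 0 lower. Silk at 2 weeks had 3 of 16 higher and 1 lower. Sponge at 4 weeks had 3 of 16 higher and 0 lower, and sponge at 2 weeks 5 of 16 higher and 1 lower. Of all genes tested in these Mo-Mac comparisons, 12.98% to 15.5% were higher and 11.3% to 12.8% lower. Il4ra, the receptor chain for interleukins 4 and 13, stood at 189 CPM in NK/T cells in silk at 4 weeks, 131 in silk at 2 weeks, 155 in sponge at 4 weeks, 81.1 in sponge at 2 weeks and 70.4 in control. In Mo-Mac cells Il4ra stood at 47.2 CPM in silk at 4 weeks, 56.6 in silk at 2 weeks, 55.7 in sponge at 4 weeks, 143 in sponge at 2 weeks and 39.9 in control. The cytokine genes themselves were scarce: Il4 and Il13 had at most 7 UMIs in any class of any library, and Ccr8 at most 10 in NK/T cells. A list of 13 genes of lymphoid tissue and cell migration, in endothelial cells, gave 2 of 6 higher and 0 lower for silk against sponge at 4 weeks, and 3 of 8 higher and 2 lower at 2 weeks. Of all genes tested there, 2.975% were higher and 5.515% lower at 4 weeks, and 6.54% higher and 3.63% lower at 2 weeks.

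Genes with the most similar pattern were ranked by Pearson's r of log2(CPM + 10) over 68 combinations of library and class or subcluster, which share libraries and depth. Ccl22 was the gene most like Ccl17 (r = 0.85), followed by Il4i1 (0.81), and Il4i1 was the gene most like Ccl22 (0.92). Ccl24 was closest to the platelet-factor genes Ppbp (0.80) and Pf4 (0.79), and to St6galnac4 (0.79). Ccl21a was closest to Cytl1, Glycam1 and the lymphatic marker Mmrn1 (0.98 each). Ccr4 was closest to the lymphocyte genes Sit1 (0.97) and Tcrg-C1 (0.96), Ccr7 to P2ry10 and Gpr171 (0.89 each), and Ccl19 to Olfr1033 (0.89) and Iglon5 (0.85). These are descriptions of where counts lie.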

How the data were processed

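The authors deposited raw UMI counts per gene and cell, and a table of cells with the library, class and subcluster of each cell and the percent of mitochondrial UMIs. Cell Ranger 3.0.0, Seurat 3.0 and the build mm10 are named, without roles, per the submitters' processing notes; no source used here gives the authors' filters on cells. Counts were summed per library and deposited class or gated set and scaled to CPM (Python 3.11.15, numpy 2.4.6, scipy 1.17.1, pandas 2.3.3, matplotlib 3.10.9). Subcluster C9 was left out of Mo-Mac cells. The deposited low-quality set and subcluster KC were left out of fibroblasts, and subcluster BP was left out of neutrophils. Intervals are exact Poisson, conditional binomial and Clopper-Pearson. Low counts limit precision. No doublet caller was run; an alternative left out 2590 cells (6.29%) with at least 2 UMIs of each of 2 markers of another class. All 7 members are named; other genes come from set lists, plus genes most similar to each member, of which 1 is not reported here. The members and lists were chosen with earlier results of these data known. The ratio code was tested on simulated counts.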

Additional observations from a re-analysis of the deposited data

Results flagged for a closer look

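The following ratios are listed because one pair of libraries lay above 0 and the matching pair below it. The differences between the pairs were not tested, and with 1 library to a group they cannot be told apart from differences between animals. In dendritic-gated C9 cells the log2 ratio of 4 weeks to 2 weeks was -1.56 in silk and 2.32 in sponge for Ccl17, and -0.23 in silk and 1.81 in sponge for Ccl22. In silk the shares of Ccl22-positive cells ran the other way, 36.5% at 4 weeks and 29.7% at 2 weeks. In the same cells the ratio of silk to sponge was -2.48 at 4 weeks and 1.41 at 2 weeks for Ccl17, and -1.18 at 4 weeks and 0.86 at 2 weeks for Ccl22. Ccl24 in Mo-Mac cells without C9 gave -0.29 in silk and 1.26 in sponge for 4 weeks over 2 weeks. Ccl19 in fibroblasts gave 2.97 in silk and -0.58 in sponge for 4 weeks over 2 weeks, and 0.61 at 4 weeks and -2.94 at 2 weeks for silk over sponge. The 0.61 nearly vanished without possible doublets and as a mean over cells, as given above. In fibroblast subcluster F1 Ccl19 gave 2.59 in silk and -0.31 in sponge for 4 weeks over 2 weeks. In F2 it gave 1.73 at 4 weeks and -1.27 at 2 weeks for silk over sponge, with 11 of the 22 UMIs of silk at 4 weeks in 1 cell.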

How the results depend on the processing

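No paired analysis was possible because each group had 1 library. The summed counts of members past 2-fold moved as follows. In Mo-Mac cells without C9 the 18 calls against control became 7 with an offset of 10 CPM, the 4 calls of silk against sponge became 0 with that offset and 1 with a minimum of 100 UMIs, and the 4 calls by time became 1 with the offset. The 16 fibroblast calls became 3 with the offset and 8 at 100 UMIs. The 17 NK/T calls became 30 at a minimum of 1 UMI, 2 at 100 UMIs and 9 without the highest cell of each library, an alternative chosen after seeing the data. The 8 neutrophil calls became 3 at 100 UMIs and 3 without the highest cells. The 14 endothelial calls became 8 with the offset, 7 at 100 UMIs and 8 without the highest cells, and the 3 myocyte calls became 5 at 1 UMI. The 25 calls in dendritic-gated cells ranged between 18 and 33. An offset or a higher minimum leaves fewer low genes to call by its construction. Among log2 ratios of at least 1 in size, directions turned under 5 alternatives, and the cause was not tested. Ccl24 in dendritic-gated cells, silk over sponge at 2 weeks, went from 2.58 to -0.79 without the highest cells. Ccl24 in endothelial cells, silk over sponge at 2 weeks, went from 1.19 to -0.15 without possible doublets. Ccl22 in endothelial cells, 4 over 2 weeks in silk, went from -4.13 to 0.30 without the highest cells. Ccl24 in NK/T cells, 4 over 2 weeks in silk, went from -1.81 to 0.53 as a mean over cells and 2.61 without possible doublets. Smaller ratios were not counted here, and Ccl19 in fibroblasts, silk over sponge at 4 weeks, changed sign without possible doublets. Ccl24 in Mo-Mac cells, silk over sponge at 4 weeks (-0.98), passed 2-fold without possible doublets (-1.13), without the highest cells (-1.08), at no more than 10% mitochondrial UMIs (-1.24) and as a mean over cells (-1.36). Centring on the median gene moved 12 of 211 log2 ratios and turned none of those at least 1 in size. Ccr4, with 124 UMIs in all, and sets of under 50 cells are the values most limited by depth.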

Other observations

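Member counts in unlikely classes lay in few cells, and these cells were picked by their counts. A single neutrophil of subcluster N3, in sponge at 2 weeks, held 110 Ccl22 UMIs and also had Ccr7. In fibroblast subcluster F4, 2 of 548 cells held 85.1% of the Ccl22 UMIs, and both had Ccr7. In NK/T cells 7 cells held 76.6% of the Ccl24 UMIs; 6 of them were possible doublets and all 7 had at least 3 macrophage UMIs. In myocytes 2 cells held 97.9% of the Ccl21a UMIs and 2 held 90.4% of the Ccl24 UMIs. All of them were possible doublets, but so were 79.6% of all myocytes, so the label does not set these cells apart. In C8, 4 of 335 cells held 89.3% of the Ccl17 UMIs. Irf4 in NK/T cells stood at 146 CPM in silk at 4 weeks, 54.1 in silk at 2 weeks, 74.9 in sponge at 4 weeks, 36.3 in sponge at 2 weeks and 7.12 in control.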
